A study of Homo sapiens with 16 samples.

Results

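U2OS cells, a human osteosarcoma line, were examined after MYBL1 and MYBL2 had been knocked down together, against the same cells given a control siRNA. The double knockdown group (siMYBL1-siMYBL2) and the control group (siCtrl) held 2 libraries each, 4 of the 16 libraries in the series. All 16803 genes that the authors list for this pair of groups were taken, of 19315 listed in any of the series' 6 comparisons. Both groups were transfected with siRNA (small interfering RNA), RNA duplexes that direct the breakdown of a matching transcript, so transfection itself is shared by the knockdown and its control. Cells were collected at 48 h, total RNA was purified with a Zymo column kit, and the libraries were made by a commercial provider. The series' design text calls the 2 libraries of a group biological replicates. Each p-value sets the difference between groups against its fitted standard error, and the spread within a pair could not be seen here. The labels give no siRNA dose or sequence, so each target rests on the siRNA the authors used, and every cell is of 1 line. The other groups set beside this pair are U2OS siMYBL1, U2OS siMYBL2, and the double knockdown and siCtrl of HCT116, a human colorectal carcinoma line, with 2 libraries each at the same time.

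The transcription factors MYBL1, also called A-MYB, and MYBL2, or B-MYB, share the MYB DNA-binding domain. MYBL2 is made from late G1 onwards and joins the MuvB core complex, which in resting cells forms the repressor DREAM with E2F4, a DP protein and the pocket proteins p130 or p107. The MuvB core contacts the cell cycle genes homology region (CHR), a short element before many genes whose transcripts are highest in G2 and mitosis, and FOXM1 joins the same complex later in the cycle. MYBL1 is best known from the testis, where it drives genes of male meiosis. The p53 protein lowers the same late cell cycle genes through CDKN1A (p21) and DREAM, and raises a separate set of growth arrest and death genes.

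The data were the authors' fitted comparison, and no value per library was available here. The authors' deposited table gives for each gene a base mean, the mean normalized count over the 4 libraries, and a log2 fold change of double knockdown over siCtrl with its standard error (SE). From these, a mean for each group was computed on the assumption that the base mean is the average of both group means. It is called the implied normalized count below, and it has no replicate error of its own. Listed genes reached down to a base mean of 14.5, base means summed to 17441617, and the depth of single libraries was unknown. Where the base mean was 100 or more, the median SE was 0.224, and the median log2 fold change of all genes was 0.01. A gene was called where the authors' adjusted p was below 0.05. Of 21 osteoblast and mesenchymal markers, 16 were listed, among them RUNX2, the master regulator of bone, and vimentin (VIM), while SP7, BGLAP, IBSP, TWIST1 and DLX5 were not listed. Their implied counts summed to 24204 in the double knockdown and 33061 in siCtrl, of which VIM alone made up 16006 and 26176. By gene, 3 of the 16 (18.75%) were higher and 2 (12.5%) lower, against 6.55% and 6.06% of all genes, with a median log2 fold change of 0.25. Of 20 epithelial markers 9 were listed, with summed implied counts of 38982 and 58109, mostly from the keratins KRT8 and KRT18, and of 19 blood and endothelial markers 4 were listed, with sums of 886 and 199. In bulk RNA, fewer cells of a state and less RNA per cell cannot be told apart.

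The siRNA targets were examined first. MYBL2 lies on the forward strand of chromosome 20 at 43667019-43716495 (hg38), and its implied normalized count was 265 in the double knockdown against 6101 in siCtrl. In the authors' deposited table it stood at -4.53 (SE 0.18, adjusted p = 5.19e-134), which corresponds to 4.34% of the siCtrl level (95% interval 3.39 to 5.55). MYBL1 was a scarcer transcript, with an implied count of 111.8 in the double knockdown and 257 in siCtrl. Its log2 fold change in the authors' deposited table was -1.20 (SE 0.34, adjusted p = 0.00497), or 43.5% of siCtrl (95% interval 27.5 to 68.6), so more of the MYBL1 transcript was left than of MYBL2. MYB, the remaining family member, did not pass and stood at 0.92 (SE 0.42, adjusted p = 0.157) by the authors' deposited table, with implied counts of 113 in the double knockdown and 59.5 in siCtrl.

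The double knockdown changed 2119 of 16803 genes, or 12.6%. Of these, 1100 were higher in the double knockdown (6.55% of all genes) and 1019 were lower (6.06%), so that the counts were near balance. An unadjusted p under 0.05 was given to 3876 genes. The median log2 fold change was 0.91 among higher genes and -0.97 among lower ones. With a log2 change of at least 1 as well, 949 genes passed (5.65%), 464 higher (2.76%) and 485 lower (2.89%), and changes of at least 2 were found for 88 higher and 132 lower genes. The share of genes called followed the level, from 1.98% of genes with a base mean under 30 to 19.8% of those at 3000 or more. Of 13684 protein-coding genes, 14.4% were called, with 1054 higher and 922 lower. Of 2617 long noncoding RNAs, which had a median base mean of 45.1 against 515 for protein-coding genes, 4.85% were called, with 39 higher and 88 lower.

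**Figure D1:**
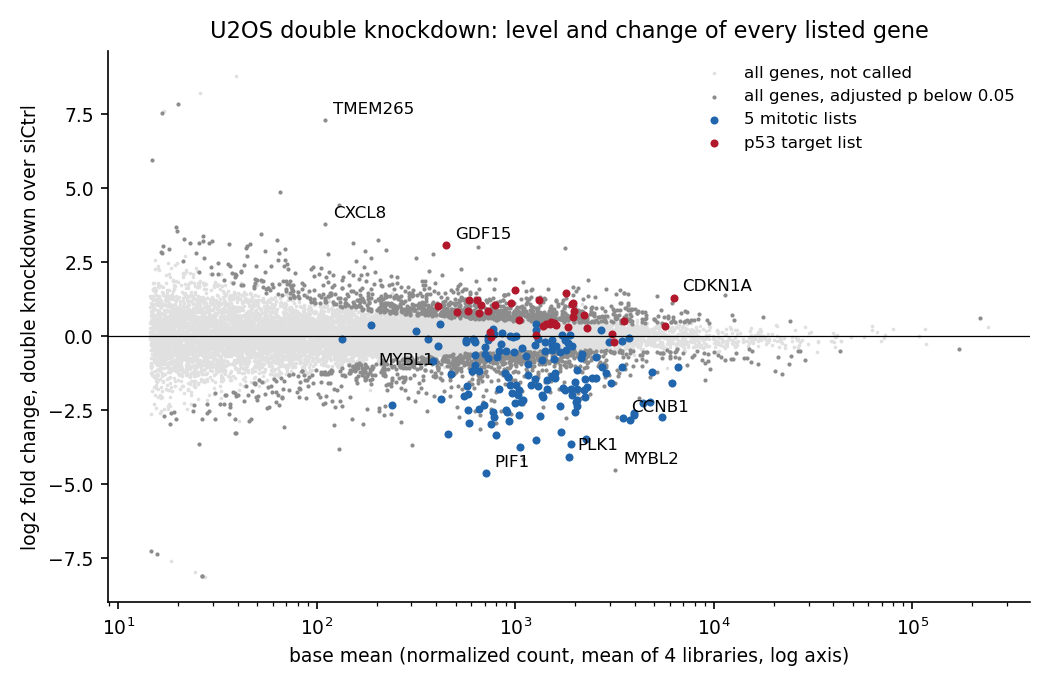
Each point is 1 listed gene, with its base mean on a log axis across and the log2 fold change of double knockdown over siCtrl up the page. Members of the 5 mitotic lists (blue) lie between -4.63 and 0.42 and members of the p53 target list (red) between -0.21 and 3.08. Called genes are dark grey, and MYBL2 lies at -4.53.

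The steepest falls were concentrated in genes of mitosis. Among called genes at a base mean of 100 or more, 400 fell to 50% of siCtrl or less, and 84 of those (21%) belonged to 5 lists of mitotic genes. Of the 89 that fell to 25% or less, 41 (46.1%) were in these lists, and of the 14 that fell to 12.5% or less, 9 were (64.3%). Of the called genes with base means of 100 or more, the 12 lowest were PIF1, MYBL2, CDCA3, PLK1, MYOCD, DEPDC1, ALPP, KIF20A, CENPE, DLGAP5, PSRC1 and CDC25C, from -4.63 to -3.31 in the authors' deposited table. Together the 5 lists held 143 listed genes, of which 100 (69.9%) were lower, none was higher and 43 were not called, against 6.06% lower among all genes. Their median log2 fold change was -1.36. Every one of the 143 had a base mean of 100 or more. The lists were chosen with earlier results of these data known, so these shares are a description and no independent support.

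Genes of mitotic entry had the lowest median of the 5 lists, -1.999. Of 26 members, 20 (76.9%, against 6.06% of all genes) were lower, and all 20 fell to 50% of siCtrl or less. PLK1, the Polo kinase of mitosis, had an implied count of 210 in the double knockdown and 3522 in siCtrl, or 5.96% of siCtrl (95% interval 4.4 to 8.08). The authors' deposited table gave it -4.07 (SE 0.22, adjusted p = 1.69e-70). AURKA, the centrosomal Aurora kinase, had 323 against 3065 implied counts, with -3.25 (SE 0.19, adjusted p = 1.30e-62) by the authors' deposited table. Cyclin B1 (CCNB1), the partner that activates CDK1 at mitotic entry, had 883 in the double knockdown and 6054 in siCtrl, and its log2 fold change was -2.78 (SE 0.16, adjusted p = 1.76e-61) by the authors' deposited table. CDC25C, the phosphatase that removes the inhibitory marks from CDK1, kept 10.1% of the siCtrl level, CCNB2 kept 15.5%, the kinase NEK2 kept 16.8% and TPX2, which activates Aurora A on spindles, kept 16.5%. CDK1 itself fell less far, to 1316 implied counts against 3535 in siCtrl, with -1.43 (SE 0.18, adjusted p = 7.55e-14) by the authors' deposited table. The activators CDC25C, CCNB1 and CCNB2 were at 10.1% to 15.5% of siCtrl and CDK1 at 37.2%. The 6 members that were not called were MASTL, PLK4, MELK, PKMYT1, WEE1 and CDC25A, between -0.41 and 0.21 in the authors' deposited table. WEE1 and PKMYT1 place the inhibitory marks on CDK1, and CDC25A acts largely at the start of S phase.

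Spindle and cytokinesis genes were the only list of the 5 in which every listed member fell, 36 of 36, and 35 of them fell to 50% of siCtrl or less. The median was -1.86 and the smallest change was that of KIF15, at -0.70 (SE 0.21, adjusted p = 0.00933) by the authors' deposited table. PIF1, a DNA helicase that was placed in this list, kept 4.05% of siCtrl (95% interval 2.91 to 5.63), with 55.6 implied counts in the double knockdown and 1374 in siCtrl. Its change was -4.63 (SE 0.24, adjusted p = 9.48e-78) by the authors' deposited table, the largest fall among called genes with base means of 100 or more. The cytokinesis kinesin KIF20A had 284 implied counts in the double knockdown and 3552 in siCtrl, and -3.64 (SE 0.18, adjusted p = 3.92e-88) by the authors' deposited table. DLGAP5 (HURP), which stabilizes the fibres that bind kinetochores, had 374 against 4180, and -3.48 (SE 0.17, adjusted p = 7.29e-88). DEPDC1 stood at 7.38% of siCtrl, the microtubule regulator PSRC1 at 9.89% and the spindle protein HMMR at 13.8%. CDCA3, a trigger of mitotic entry that is in none of the lists, stood at 5.59% of siCtrl (95% interval 4.22 to 7.40).

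Kinetochore genes were split. Of 43 members, 28 (65.1%, against 6.06% of all genes) were lower and 15 were not called, with a median of -0.76. CENPE, the kinesin that carries chromosomes to the metaphase plate, kept 8.84% of siCtrl (208 against 2349 implied counts, and -3.50 with SE 0.22 in the authors' deposited table). CENPA, the histone H3 variant that marks centromeres, kept 12.7%, and HJURP, its loading chaperone, kept 21.1%. CENPF stood at 15.8%, the chromosomal passenger CDCA8 (borealin) at 17.7% and NDC80, the microtubule-binding subunit, at 22.7%. The members that were not called included CENPH, CENPK, CENPP and CENPQ of the constitutive inner kinetochore, between 0.10 and 0.42, and MIS12, DSN1, NSL1 and PMF1 of the MIS12 complex, between -0.32 and 0.07, in the authors' deposited table. Thus CENPE, CENPF and NDC80 stood between -3.50 and -2.14 on the log2 scale, while all 4 MIS12 complex subunits were within 0.32 of 0.

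The chromosome structure list showed a similar split between its parts. TOP2A, the topoisomerase that untangles sister chromatids, had 1454 implied counts in the double knockdown and 9545 in siCtrl, and -2.71 (SE 0.16, adjusted p = 4.09e-64) by the authors' deposited table. The proliferation antigen Ki-67 (MKI67) stood at 21.2% of siCtrl and securin (PTTG1), the inhibitor of separase, at 16.8%. Of the condensin subunits, NCAPG stood at 31.8%, NCAPD2 at 33.2%, SMC4 at 43.4%, NCAPH at 59.8%, NCAPG2 at 71.8% and SMC2 at 72.2% of siCtrl. NCAPD3 and NCAPH2 were not called, at -0.49 and 0.19 in the authors' deposited table. NCAPD3 nevertheless stood about as low as NCAPG2 and SMC2, so that these differed in the call alone. In all, 10 of 19 members (52.6%, against 6.06% of all genes) were lower. Of cohesin, RAD21 fell to 48.4% of siCtrl, whereas SMC1A, SMC3, STAG1 and STAG2 were not called and lay between -0.28 and -0.05 in the authors' deposited table. Of the 19 genes of the anaphase-promoting complex list, 6 (31.6%, against 6.06% of all genes) were lower. They were CDC20, the mitotic activator, at 14% of siCtrl, the ubiquitin-conjugating enzymes UBE2C at 16.9% and UBE2S at 21%, the subunits ANAPC13 and CDC27 at 41.5% and 61.1%, and the inhibitor FBXO5 (EMI1) at 50.7%. CDC20 had 931 implied counts in the double knockdown and 6663 in siCtrl, with -2.84 (SE 0.18, adjusted p = 3.03e-51) by the authors' deposited table. The other activator, FZR1 (CDH1), was not called at -0.49 (SE 0.20, adjusted p = 0.0929) by the authors' deposited table, and 12 further members were not called either, from -0.33 to 0.17.

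**Figure D2:**
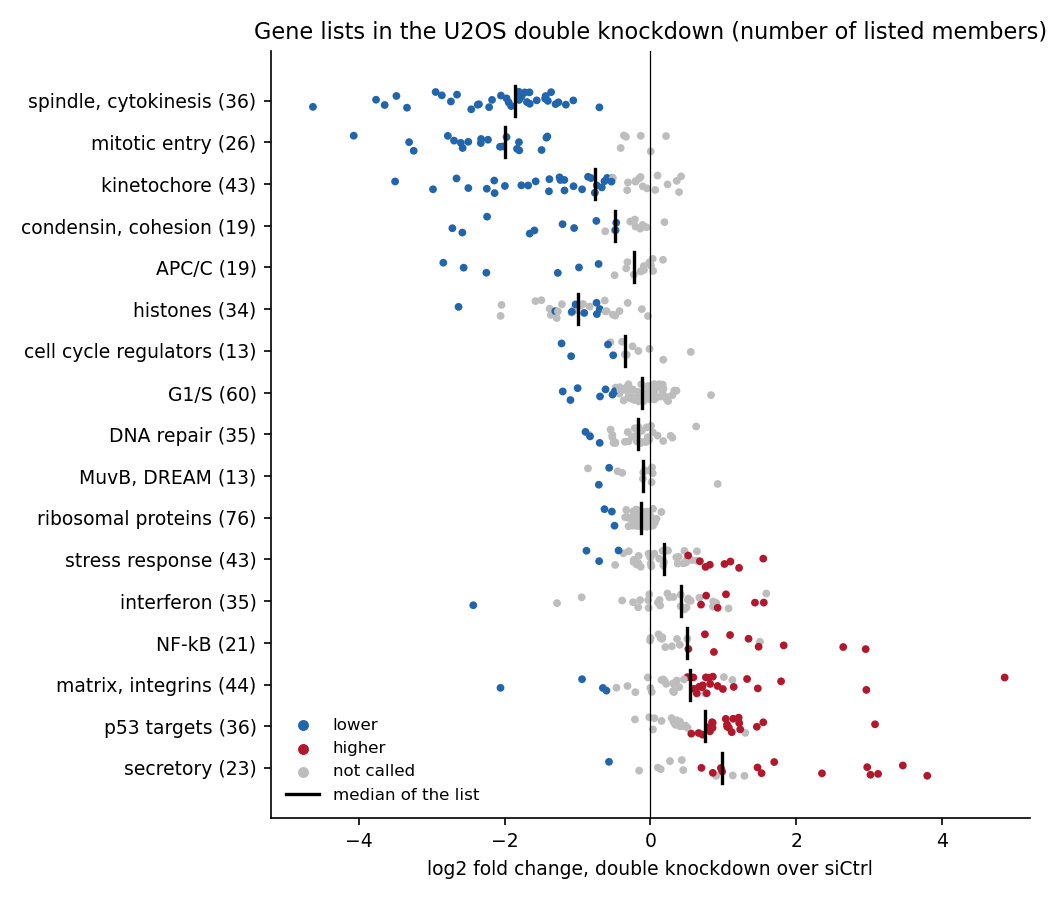
Each point is the log2 fold change of 1 listed gene in the double knockdown over siCtrl, by gene list with the number of listed members in parentheses. Blue members were lower, red members higher and grey members not called, and black lines mark medians, from -1.999 for mitotic entry to 0.98 for secretory genes. The histone gene H2AC19, at 8.79 and not called, lies beyond the axis.

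The promoters of the fallen genes were read for the CHR because MuvB is known to contact it. Promoters came from a RefSeq table (GRCh38.p14) that gives 250 bases before and 50 after a gene's start, and a gene may have several. The 6 windows of 30 bases below belong to the mitotic list genes with the smallest adjusted p whose promoter held the hexamer upstream of the start. They are shown to let the element and its surroundings be compared among genes that fell together. They are written 5′ to 3′ on the strand of the gene, with the CHR hexamer in capitals. It was searched as TTTGAA or TTCGAA on both strands, so that TTCAAA is TTTGAA on the opposite strand.
DLGAP5 (chr14:55191677-55191706, reverse strand): cctttcaatcaaTTCAAAtatcgcacggag
PIF1 (chr15:64825650-64825679, reverse strand): ctgcctctagcaTTTGAAaaatttctagtt
PLK1 (chr16:23678848-23678877, forward strand): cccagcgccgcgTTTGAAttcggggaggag
TOP2A (chr17:40418030-40418059, reverse strand): ctgattggtttaTTCAAAcaaaccccggcc
PSRC1 (chr1:109283157-109283186, reverse strand): gggcctgagagaTTCGAAaggagccccgcc
CDC20 (chr1:43358904-43358933, forward strand): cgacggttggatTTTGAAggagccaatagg
The hexamer began 109 bases before the listed start in DLGAP5, 20 in PIF1, 29 in PLK1, 151 in TOP2A, 29 in PSRC1 and 65 in CDC20. Of these genes, 5 carried TTTGAA on 1 strand or the other, and PSRC1 carried TTCGAA, which reads the same on both strands. Each of the 6 promoters also held CCAAT, the box bound by NF-Y, at least once. This box was common in the mitotic lists, in 68.9% of genes with a listed promoter and in 76.2% of those that fell.

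Across genes, the CHR hexamer was more frequent in promoters of lower genes, which is given as a description without a test. Protein-coding genes were matched to the promoter table by symbol, which placed 10907 of 13046 (83.6%) with genes of 1 chromosome not analysed here. It was found in 28.8% of lower genes (218 of 758), in 14.6% of higher genes (118 of 808) and in 14.9% of genes not called (1391 of 9341), and in 16.4% of all 35116 promoters of the table. Among genes that fell to 50% of siCtrl or less the share was 37.7%, and among the other lower genes it was 21.7%. Within the mitotic lists, 63.0% of the 119 matched genes held it, with 73.8% of those that fell and 37.1% of those not called. Lower genes outside the mitotic lists held it in 23.2%. CCAAT, on either strand, was found in 57.5% of lower genes, 37.6% of higher genes, 42.4% of genes not called and 34.6% of all promoters. The MYB core, searched as AACGG or AACTG on both strands, differed less, with 62.9% of lower genes, 54.3% of higher genes, 57.9% of genes not called and 52.4% of all promoters. Lower genes had 1.53 listed promoters on average, higher genes 1.65 and genes not called 1.46. A match of these letters is a description of the sequence and was not tested as a binding site.

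Genes with both elements fell most often. Of 55 mitotic list genes with CHR and CCAAT in the same gene's promoters, 50 (90.9%) were lower, with a median log2 fold change of -1.83. With CHR alone 12 of 20 were lower (median -0.60), with CCAAT alone 14 of 27 (median -0.525), and with neither 8 of 17 (median -0.34). Over all matched protein-coding genes, 17.4% of the 935 with both elements were lower, against 6.94% of the 792 with CHR alone, 7.25% of the 3768 with CCAAT alone and 4.93% of the 5412 with neither. Genes of the G1/S list, described next, held the hexamer in 9.80% of 51 matched members.

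**Figure D3:**
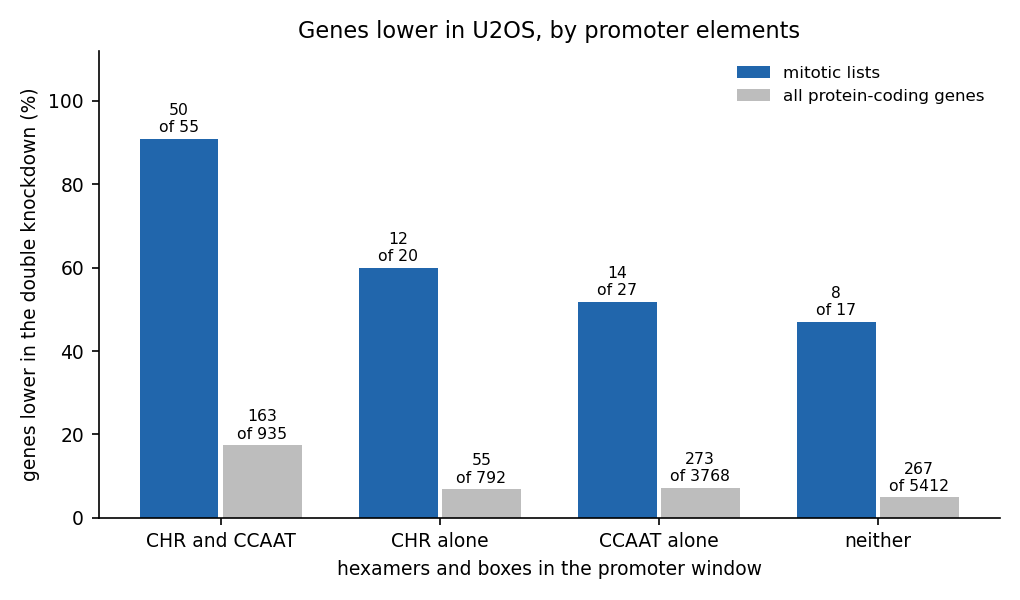
Bars give the percent of genes lower in the double knockdown over siCtrl, by the elements found in the promoter window, for mitotic list genes (blue) and all matched protein-coding genes (grey), with counts above the bars. Of genes with CHR and CCAAT, 90.9% of mitotic list members and 17.4% of all genes were lower.

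Genes of DNA replication and the G1/S transition, most of them E2F targets, moved little beside the mitotic genes. Of 60 members, 7 (11.7%) were lower, none was higher and 53 were not called, with a median of -0.12. The lower ones included DBF4, RRM2, UHRF1, TK1, MCM6 and MCM7. RRM2, the regulated subunit of ribonucleotide reductase, had 2277 implied counts in the double knockdown and 4867 in siCtrl, and -1.10 (SE 0.16, adjusted p = 3.86e-10) by the authors' deposited table. DBF4, the activator of the CDC7 kinase, stood at 43.5% of siCtrl, UHRF1 at 50.1%, TK1 at 62.0% and MCM6 at 65.3%. The replication clamp PCNA and the helicase subunit MCM2 were not called, at 0.16 (SE 0.17) and -0.03 (SE 0.17) in the authors' deposited table. Of 35 DNA repair genes, 3 (8.57%) fell, near the 6.06% of all genes, and none was higher. They were UBE2T, POLQ and XRCC3, at 54.0% to 61.8% of siCtrl.

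Some regulators of these programmes were lower too. FOXM1 had 3117 implied counts in the double knockdown and 7252 in siCtrl, and -1.22 (SE 0.17, adjusted p = 1.93e-11) by the authors' deposited table. Of 13 cell cycle transcription regulators, FOXM1 included, 4 (30.8%, against 6.06% of all genes) were lower. The others were E2F8, RB1 and NFYC, at 47.1%, 66.8% and 70.2% of siCtrl. Among 13 MuvB, DREAM and MYB family genes, 2 (15.4%) were lower. LIN9 of the MuvB core fell to 61.2% and the pocket protein RBL2 (p130) to 67.6% of siCtrl. Both were near the threshold, with adjusted p = 0.0409 and 0.0381 by the authors' deposited table. The other 11 were not called, among them LIN37, LIN52, LIN54 and RBBP4 of the core, between -0.39 and 0.02 in the authors' deposited table. Of 11 listed inhibitors and partners of cyclin-dependent kinases, CDKN3, a phosphatase that acts on these kinases and is itself a late cell cycle gene, fell to 14.8% of siCtrl, CDKN2D (p19) to 35.6% and CDKN2C (p18) to 49.2%. Cyclin D2 (CCND2) rose 1.74-fold (95% interval 1.41 to 2.15). Of the 11, 27.3% were lower and 9.09% higher, against 6.06% and 6.55% of all genes.

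Replication-dependent histone genes lay below siCtrl in 33 of 34 listed members, with a median of -0.99. Only 12 of the 34 had a base mean of 100 or more, so this median rests largely on scarce transcripts. Of the 34, 9 passed the test (26.5%, against 6.06% lower among all genes). H4C14 stood at 49.1%, H2AC6 at 53.3% and H1-2 at 61.8% of siCtrl. The exception, H2AC19, had a log2 fold change of 8.79 with SE 4.79 and was not called (adjusted p = 0.261) by the authors' deposited table, while its near-identical neighbour H2AC18 stood at -0.48 (SE 0.20, adjusted p = 0.105). Histone genes have near-identical copies, so reads could be shared unequally among them, and 25 of the 59 genes of the list were not listed.

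Several lower genes had no place in the cell cycle lists. LMNB1, the gene of lamin B1 in the nuclear envelope, had 840 implied counts in the double knockdown and 5627 in siCtrl, and -2.74 (SE 0.16, adjusted p = 4.65e-59) by the authors' deposited table. It was 1 of 3 lower members (30%, against 6.06% of all genes) among 10 nuclear lamina genes, with SUN2 at 57.2% and TMPO at 63.6% of siCtrl. BANF1 was the 1 higher member (10%, against 6.55%), by 1.497-fold. MYOCD, the coactivator of smooth muscle genes, had 17.1 implied counts in the double knockdown against 242 in siCtrl, and -3.83 (SE 0.43, adjusted p = 9.23e-17) by the authors' deposited table. The growth factor BMP4 fell to 23.7% of siCtrl. The placental phosphatase ALPP was called with a wide error, at -3.68 (SE 1.33, adjusted p = 0.0475) by the authors' deposited table, and its close paralogs make its count uncertain. Of 31 sterol and fatty acid genes, 5 (16.1%, against 6.06% of all genes) were lower, among them SREBF1 at 49.9% and SCD at 60.1% of siCtrl. In the same list 2 (6.45%) were higher, near the 6.55% of all genes. Among 76 cytosolic ribosomal protein genes 3 (3.95%, against 6.06% of all genes) were lower, RPL17, RPS26 and RPL10, at 64.6% to 71.1% of siCtrl, and the list's median was -0.13. Of 15 mitochondrially encoded genes, 1 (6.67%, against 6.55% of all genes) was higher, MT-RNR2 by 1.51-fold, and the list's median was 0.13.

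Targets of p53 moved in 1 direction. Of 36 listed genes, 20 (55.6%) were higher and none was lower, against 6.55% higher among all genes, with a median of 0.75. GDF15, a stress-induced cytokine, had 804 implied counts in the double knockdown and 95.1 in siCtrl, and 3.08 (SE 0.70, adjusted p = 0.000252) by the authors' deposited table. SESN2, a sestrin that restrains growth signalling, was 2.92-fold higher (95% interval 2.20 to 3.89). The antiproliferative gene BTG2 was 2.75-fold higher, the growth arrest gene GADD45A 2.35-fold, SUSD6 2.32-fold, TRIM22 2.20-fold and ZMAT3 2.17-fold. The death genes BBC3 (PUMA) and FAS rose by 2.07-fold each. CDKN1A, the gene of the p21 inhibitor and the best known target, did not pass. Its implied count was 8953 in the double knockdown and 3632 in siCtrl, and its log2 fold change was 1.30 with SE 0.62 (adjusted p = 0.179) by the authors' deposited table. That SE compares with a median of 0.165 among genes at a base mean of 3000 or more. MDM2 was not called either, at 0.32 (SE 0.19, adjusted p = 0.324) by the authors' deposited table.

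Secreted factors had the highest median after the 4 listed blood and endothelial markers. Of 36 genes of a senescence-associated secretory list, 23 were listed, with a median of 0.98. Of these, 13 (56.5%) were higher and 1 (4.35%), IGFBP5, was lower, against 6.55% and 6.06% of all genes. CXCL8 (interleukin 8) had 204 implied counts in the double knockdown and 14.7 in siCtrl, and 3.79 (SE 0.52, adjusted p = 3.88e-11) by the authors' deposited table. IGFBP7, a secreted binder of insulin-like growth factors, had 1157 against 143, and 3.02 (SE 0.60, adjusted p = 1.72e-05) there. The chemokine CCL20 had 96.0 in the double knockdown and 8.72 in siCtrl. The macrophage growth factor CSF1 was 2.88-fold higher, IL11 2.77-fold and LIF 1.95-fold. IL1A, CSF2 and MMP3 were also higher, but with implied siCtrl counts between 7.46 and 12.1. Listed genes reached down to a base mean of 14.5, which averages both groups. Genes this scarce in siCtrl could therefore be listed through the double knockdown alone, which can raise the share higher and the median. Of the 23, 14 had a base mean of 100 or more. Of 21 genes of the NF-κB pathway, 9 (42.9%, against 6.55% of all genes) were higher and none was lower, with a median of 0.51. TRAF1, an adaptor of tumour necrosis factor receptors, was 6.24-fold higher (95% interval 3.88 to 10.1), BIRC3 3.55-fold, NFKBIE 2.80-fold, TNFAIP3 2.54-fold, IRF1 2.13-fold and NFKB1 1.83-fold.

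Matrix and adhesion genes followed. Of 44 listed members, 20 (45.45%) were higher and 4 (9.09%) lower, against 6.55% and 6.06% of all genes, with a median of 0.55. The collagen chain COL6A3 had 5189 implied counts in the double knockdown and 1870 in siCtrl, and 1.47 (SE 0.21, adjusted p = 6.18e-10) by the authors' deposited table. COL11A1 was 2.51-fold higher, ITGB3 3.46-fold and ITGA5 1.81-fold. ITGA2, the integrin subunit that pairs with ITGB1 to bind collagen, had 3146 implied counts against 405 in siCtrl, and 2.96 (SE 0.69, adjusted p = 0.000459) by the authors' deposited table. ITGA11 had 127 in the double knockdown against 4.38 in siCtrl. ITGB1, the shared partner of many integrins, went the other way and fell to 11414 against 21855 in siCtrl. Of 30 genes of the serum response and YAP list 6 (20%) were higher and 4 (13.3%) lower, against 6.55% and 6.06% of all genes. Smooth muscle actin (ACTA2) was 5.74-fold higher and calponin (CNN1) 2.46-fold, while the coactivator MYOCD fell, as given above, and TAGLN2 fell to 52.9% of siCtrl. Of 19 immediate early and AP-1 genes, FOSL1 (2.32-fold), MAFF (2.20-fold) and IER3 (1.51-fold) were higher and JUN fell to 58.5% of siCtrl. That list thus had 15.8% higher and 5.26% lower, the latter below the 6.06% of all genes.

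Interferon-stimulated genes were mixed. Of 35 listed members 6 (17.1%) were higher, against 6.55% of all genes, and 1 was lower, with a median of 0.42. The higher ones included GBP1 (2.70-fold), IFIT2 (2.94-fold), OAS3 (1.89-fold) and ISG20 (2.05-fold). IFIT1 fell to 64.7 implied counts in the double knockdown against 348 in siCtrl, with -2.43 (SE 0.32, adjusted p = 8.58e-12) by the authors' deposited table, while ISG15 was not called at 0.13. Thus IFIT1 and IFIT2 differed in direction. Of 15 antigen presentation genes 2 (13.3%, against 6.55% of all genes) were higher, PSMB8 (1.76-fold) and TAP1 (1.45-fold). Of 43 amino acid and unfolded protein stress genes, 8 (18.6%) were higher and 3 (6.98%) lower, against 6.55% and 6.06% of all genes. TRIB3 (2.32-fold) and HERPUD1 (2.14-fold) were among the higher ones, and the chaperone HSPA5 (BiP) fell to 61.4% of siCtrl. The median of this list was 0.19. Of 13 listed germline genes, the meiotic MSH5 and DMC1 were lower (15.4%, against 6.06% of all genes). MLH3 and MOV10L1 were higher (15.4%, against 6.55%), and 23 of the 36 genes of the list were not listed.

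The 12 highest genes at a base mean of 100 or more were TMEM265, ESM1, CXCL8, RGS4, DRAXIN, GDF15, IGFBP7, ITGA2, CORO2B, KLHDC8A, LPXN and ITGAX. TMEM265 had 218 implied counts in the double knockdown and 1.38 in siCtrl, so no fold is given. ESM1, a secreted proteoglycan of endothelium, had 247 against 11.5, with a wide error of 1.15 on the log2 scale in the authors' deposited table. RGS4, a regulator of G protein signalling, was 9.39-fold higher (95% interval 5.27 to 16.7) and DRAXIN, an axon guidance protein that antagonizes WNT, 8.78-fold (95% interval 5.04 to 15.3). ITGAX (CD11c), an integrin of myeloid cells, had 672 implied counts in the double knockdown and 98.3 in siCtrl and was the single called member of the blood and endothelial markers. Its rise makes up most of the difference in their sum given above, while PTPRC, CD14 and PECAM1, which define such cells, were not listed.

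The double knockdown was set beside each single knockdown to see where it differed. All 3 comparisons in U2OS share the siCtrl libraries, so their values are given side by side, and the difference of 2 deposited log2 fold changes was tested against its summed error. Shared controls cancel in such a difference, so that this error is too large. Against siMYBL2 alone, 163 of 15476 genes differed (1.05%), 40 higher (0.258%) and 123 lower (0.795%) in the double knockdown, and 63 of the lower ones were in the mitotic lists. Against siMYBL1 alone, 227 of 14760 genes differed (1.54%), 14 higher (0.0949%) and 213 lower (1.44%), with 70 of the lower ones in the mitotic lists. The median log2 fold change of the 143 mitotic genes was -1.36 in the double knockdown, -0.41 with siMYBL1 and -0.40 with siMYBL2. The double knockdown lowered 100 of them, siMYBL1 lowered 35 (2.27% of all genes were lower there) and siMYBL2 lowered 52 (3.51% of all genes). In either direction, siMYBL1 changed 5.71% of its listed genes and siMYBL2 5.2%. MYBL2 itself stood at -4.53 in the double knockdown and -4.46 with siMYBL2 alone in the authors' deposited table, a difference of -0.06 (SE 0.25, adjusted p = 1).

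PLK1 stood at -4.07 in the double knockdown, -0.62 with siMYBL1 and -0.82 with siMYBL2 in the authors' deposited table, and the double knockdown was lower than siMYBL2 alone by a log2 difference of -3.24 (SE 0.28, adjusted p = 1.84e-27). AURKA showed -3.25, -0.998 and -0.47 in the same order in the authors' deposited table, with a difference from siMYBL2 alone of -2.77 (SE 0.25, adjusted p = 2.89e-24). For both kinases the double knockdown was lower than either single one beyond the summed error. CENPE, DLGAP5 and PIF1 stood at -0.45, -0.46 and -0.81 with siMYBL1 and at -1.58, -1.41 and -1.73 with siMYBL2 in the authors' deposited table. DEPDC1 and HMMR had the opposite order, and the single knockdowns were not tested against each other. They stood at -3.76 and -2.86 in the double knockdown, at -1.01 and -1.05 with siMYBL1, and at -0.32 and 0.06 with siMYBL2, in the authors' deposited table. CDK1 differed from siMYBL2 alone by -0.93 (SE 0.26, adjusted p = 0.0346) and from siMYBL1 alone by -0.85 (SE 0.27, adjusted p = 0.0882), so only the first passed. LMNB1 had yet another order, at -2.74 in the double knockdown, -2.29 with siMYBL1 and -0.19 with siMYBL2 in the authors' deposited table, and its double knockdown value did not pass against siMYBL1 alone (-0.46, SE 0.24, adjusted p = 0.765).

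**Figure D4:**
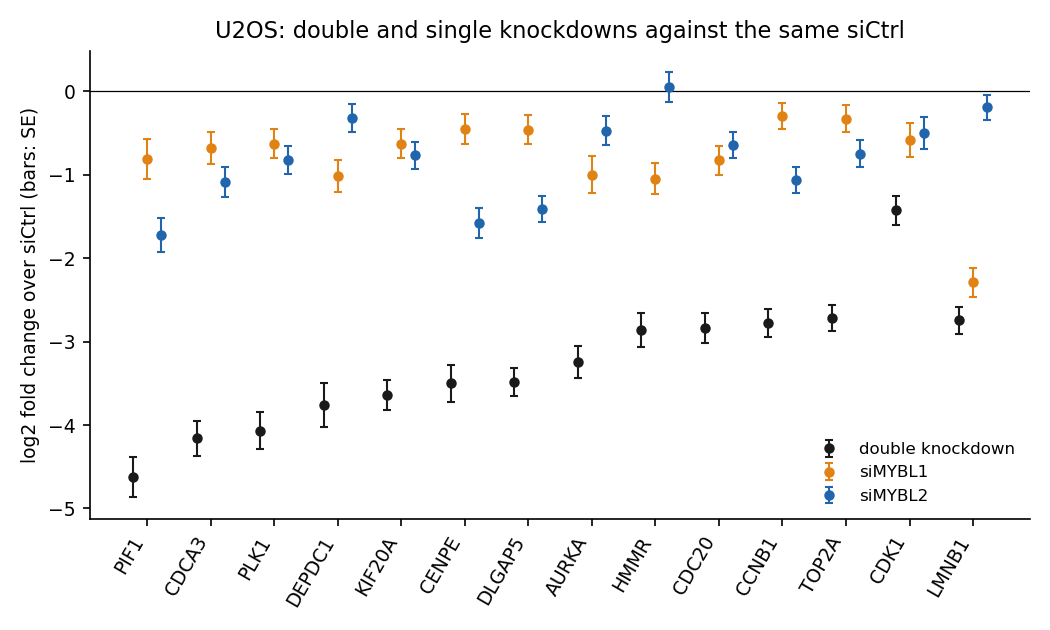
Points give the log2 fold change over siCtrl, with bars of 1 SE, for 14 genes in the U2OS double knockdown (black), siMYBL1 (orange) and siMYBL2 (blue), which share siCtrl. PLK1 lies at -4.07 in the double knockdown, at -0.62 with siMYBL1 and at -0.82 with siMYBL2, whereas LMNB1 lies at -2.74, -2.29 and -0.19.

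Counted in both directions, most genes that differed from a single knockdown lay outside the mitotic lists, but few of them were members of the other lists. Among genes lower than with siMYBL2 alone, however, 63 of 123 were in the mitotic lists. The p53 target list had medians of 0.75 in the double knockdown, 0.41 with siMYBL1 and 0.31 with siMYBL2. In that list 20 members were higher in the double knockdown, 6 with siMYBL1 (3.44% of all genes were higher there) and 4 with siMYBL2 (1.69%). No member passed the test of the difference from either single knockdown, whose summed error is too large. Of all genes, 0.258% were higher than with siMYBL2 alone and 0.0949% than with siMYBL1 alone, so a list of 36 could well hold none. The stress response list had medians of 0.19 in the double knockdown, 0.75 with siMYBL1 and -0.20 with siMYBL2. The asparagine synthetase gene ASNS stood at 0.01 in the double knockdown, 1.26 with siMYBL1 and -0.35 with siMYBL2 in the authors' deposited table. KRTAP2-3, a keratin-associated gene, stood at 1.04 in the double knockdown, 2.37 with siMYBL1 and -1.72 with siMYBL2 in the authors' deposited table, and both of its differences passed (2.76 over siMYBL2, adjusted p = 2.56e-08, and -1.34 from siMYBL1, adjusted p = 0.0262). SEMA7A, FRMD4A, SERPINB5 and TRIML2 were also higher in the double knockdown than with siMYBL2 alone, by log2 differences of 1.64 to 1.77. VAT1L, LAT2, MIAT, IRF1, CADM3 and LPL were higher than with siMYBL1 alone, by 1.26 to 1.74. Of these, MIAT and LPL did not pass against siCtrl in the double knockdown, with 0.07 and 0.72 in the authors' deposited table, and stood at -1.35 and -1.02 with siMYBL1.

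The same double knockdown in HCT116 has its own controls, so the difference between the lines carries the summed error of both. Of 12388 genes listed in both, 157 differed (1.27%), 64 higher (0.517%) and 93 lower (0.751%) in U2OS. Mitotic genes fell in both lines, with medians of -1.36 in U2OS and -1.19 in HCT116, and 108 of 143 were lower in HCT116 (4.12% of all genes were lower there and 6.95% changed in either direction). Of the 143, 76 stood lower in U2OS and 67 stood lower in HCT116, with a median difference of -0.10. Yet 10 members fell further in U2OS beyond the summed error and none passed in the other direction. They were PLK1, AURKA, CDC20, TPX2, CDC25B, CDC25C, KIF20A, KNSTRN, PIF1 and PIMREG. PLK1 stood at -4.07 (SE 0.22) in U2OS and -2.19 (SE 0.20) in HCT116 in the authors' deposited tables, a difference of -1.88 (SE 0.30, adjusted p = 6.60e-07). MKI67, at -2.24 and -2.34, and CDK1, at -1.43 and -1.46 in the authors' deposited tables, differed by 0.10 (SE 0.28) and 0.03 (SE 0.27), with adjusted p = 0.988 and 0.998. MYBL2 itself fell further in U2OS, at -4.53 against -3.33 in HCT116 in the authors' deposited tables (difference -1.19, SE 0.25, adjusted p = 0.00079). MYBL1 stood at -1.20 in U2OS and -1.85 in HCT116, a difference that did not pass (0.64, SE 0.50, adjusted p = 0.826). The part of the depth of knockdown in these line differences was not tested.

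Between the lines, replication genes leaned more to 1 side than mitotic genes did. Of the 60 G1/S genes, 52 stood higher in U2OS than in HCT116, with medians of -0.12 in U2OS and -0.52 in HCT116 and a median difference of 0.33. Of these, ASF1B, DSCC1, MCM4 and WDHD1 passed the test, by 0.84 to 0.96. The other 8 of the 60 stood lower in U2OS, and none of them passed. HCT116 lowered 24 of the 60 against 7 in U2OS. The p53 target list had medians of 0.75 in U2OS and 0.82 in HCT116, where 24 of 34 were higher (2.82% of all genes). The single member that differed was TP53I3, at 0.44 in U2OS and 1.70 in HCT116 in the authors' deposited tables (difference -1.26, adjusted p = 0.00595). CXCL8 showed the widest gap among list members that passed, at 3.79 in U2OS and -0.29 in HCT116 in the authors' deposited tables (difference 4.09, adjusted p = 1.11e-06), and NFKBIE stood at 1.48 in U2OS and -0.01 in HCT116. BMP4 fell in U2OS (-2.08, SE 0.19) and stood at 0.26 (SE 0.17) in HCT116 in the authors' deposited tables. ZXDB, a zinc finger gene on the X chromosome, stood at -1.85 in U2OS and 0.12 in HCT116 there, and at -1.62 with siMYBL2 alone in U2OS. CPA4, a carboxypeptidase, was not called in U2OS (0.33, SE 0.18) and was higher in HCT116 (2.45, SE 0.26) in the authors' deposited tables.

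**Figure D5:**
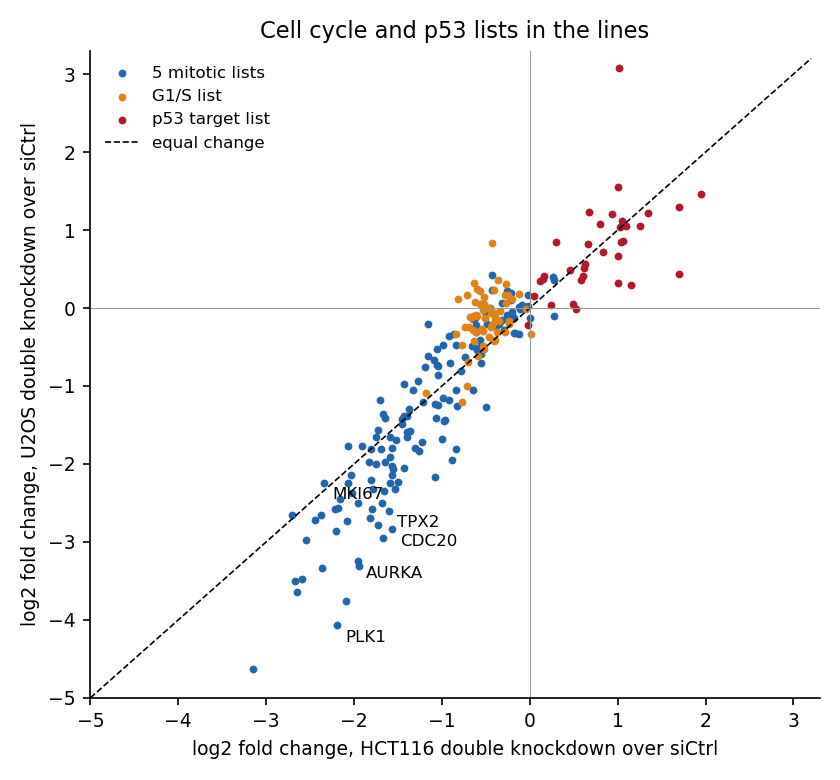
Each point is 1 gene, with the log2 fold change of double knockdown over siCtrl in U2OS up the page and in HCT116 across, and the dashed line marks equal change. Of the mitotic list genes (blue) 76 of 143 lie below the line, and of the G1/S genes (orange) 52 of 60 lie above it, while PLK1 lies at -4.07 in U2OS and -2.19 in HCT116.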

How the data were processed

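Libraries were grouped by the line and siRNA in their labels. The submitters' processing notes name Cutadapt 4.4, Salmon 1.10.1, DESeq2 1.40 and the build hg38, without settings, and the annotation used is not given in the sources used here. Per the file headers, the base mean is a signal that averages normalized counts over 4 libraries. The deposited log2 fold change sets knockdown over siCtrl. The Wald score deposited with it equals that change divided by its SE. The deposited p-value is the 2-sided normal p of this score, and recomputing the Benjamini-Hochberg adjustment over listed genes gave the adjusted values that the authors deposited. Calls against siCtrl use the authors' DESeq2 adjusted p below 0.05.

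With Python 3.11.15, pandas 2.3.3 and scipy 1.17.1, group means were computed from base mean and fold change, 95% normal intervals from the SE, list counts and medians, promoter matches on symbols (a gene may have several promoters, and any match counted), and differences between 2 tables. A difference was divided by the square root of both SEs squared and added, given a 2-sided normal p, and adjusted by Benjamini-Hochberg over genes in both tables. This test was tested on simulated data. Values per library were not available, so library depth is unknown and the planned count tests gave way to the deposited ones. HCT116 single knockdowns were not used here.

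The members and the 28 gene lists were chosen with earlier results of these data known. Named were MYB, MYBL1 and MYBL2, the 12 genes each way with the largest called change and a base mean of 100 or more, up to 6 members per list with the smallest adjusted p, up to 6 genes each way and 4 mitotic genes per difference, 6 mitotic genes with a CHR, and CDK1, CCNB1, PLK1, AURKA, TOP2A, FOXM1 and CDKN1A wherever they were measured. Further list members were named after their values were seen, to account for members that did not move, for short counts or for well-known targets. Some genes that this rule takes are not reported here. Alternatives covered thresholds, adjustments, level minimums, centring, the shared-control variance and the promoter window.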

Additional observations from a re-analysis of the deposited data

Results flagged for a closer look

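Genes whose response to the double knockdown differed between U2OS and HCT116 numbered 157 of 12388 by the test of the difference itself. The values that follow are log2 differences, U2OS minus HCT116, of the genes that the naming rule took. Lower in U2OS were BMP4 (-2.34), IFIT1 (-2.17), CPA4 (-2.12), ZXDB (-1.97), SEMA3G (-1.92) and PLK1 (-1.88), and among mitotic genes AURKA (-1.29), CDC20 (-1.27) and TPX2 (-0.99). Higher in U2OS were PCDH7 (2.09), DRAXIN (2.07), LIMD2 (1.80), ZFPM2-AS1 (1.72), KITLG (1.63) and PDLIM3 (1.62). SEMA3G, a semaphorin, stood at -1.43 in U2OS and 0.48 in HCT116, and the protocadherin gene PCDH7 at 1.94 in U2OS and -0.15 in HCT116, in the authors' deposited tables. KITLG, the ligand of the KIT receptor, stood at 1.43 in U2OS and -0.20 in HCT116 there. LIMD2 and PDLIM3 were called higher in U2OS (0.95 and 0.83) and stood at -0.85 and -0.78 in HCT116 without passing, in the authors' deposited tables. DRAXIN stood at 3.13 in U2OS and, without passing, at 1.07 in HCT116 in the authors' deposited tables. MYBL2 was also reduced further in U2OS than in HCT116, by a log2 difference of -1.19, and the part of this in the line differences was not tested.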

How the results depend on the processing

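Centring on the median of all genes, the alternative against siCtrl that could turn a direction, turned none of the 202 named genes and changed no call among them. Against siCtrl, 574 genes (237 higher, 337 lower) passed with the Holm adjustment, 1163 (562 higher, 601 lower) with Benjamini-Yekutieli, 1352 (666 higher) at an adjusted p below 0.01, and 949 (464 higher, 485 lower) with a log2 change of at least 1 as well. Of the named genes 71 lost their call under Holm, 35 under Benjamini-Yekutieli, 54 under the change of at least 1 and 29 at 0.01. With the variance halved for shared controls, differences from siMYBL2 alone numbered 642 (315 higher, 327 lower) and from siMYBL1 alone 822 (220 higher, 602 lower). With Holm, 26 genes differed between the lines (9 higher and 17 lower in U2OS), and 8 of the 15 genes named for that difference lost their call. The share with a CHR among lower genes was 23.8% upstream of the start alone and 23.6% in the first listed promoter, an alternative chosen after seeing the data; among higher genes it was 9.16% in the first promoter, and among genes not called 13.3% with TTTGAA alone, 13.2% upstream and 10.4% in the first promoter. The cause was not tested. No paired analysis was possible because the tables hold no values per library, and for the same reason leaving out each replicate was not run. With 2 libraries a group, genes with a base mean under 30 had a median SE of 0.855, so modest changes in them were not detectable.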
